A study of Homo sapiens with 4 samples.

Results

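The genes described are 10 enzymes that make serine, asparagine and proline or carry carbon units on folate in mitochondria. They were taken by symbol from the count table, where each symbol matched 1 Ensembl gene, and they make up 10 of the 61541 genes listed. Messenger RNA was sequenced from MDA-MB-231, an established human breast cancer line without estrogen receptor. Cadmium libraries came from cells passaged for long in medium with cadmium sulfate, raised stepwise to 10 µM, until they were resistant (n = 2). Control libraries came from parental cells passaged in the same way in ordinary medium (n = 2). All libraries therefore represent 1 line and 1 selection, and the labels do not say whether the cadmium libraries came from separate cultures, so p-values measure only the spread between these libraries. Control libraries carry the numbers 2 and 3 in the count table and are named control 2 and control 3, and the others are named cadmium 1 and cadmium 2.

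Serine is made from a glycolytic intermediate by PHGDH, PSAT1 and PSPH in that order. SHMT2 then passes a carbon of serine to folate in mitochondria, and MTHFD2, MTHFD1L and ALDH1L2 oxidize the folate-bound carbon or release it. ASNS makes asparagine from aspartate, and ALDH18A1 and PYCR1 make proline from glutamate. Many of these genes are known targets of ATF4, the transcription factor of the amino acid response, which binds a composite C/EBP-ATF response element (CARE). MDA-MB-231 is known as a line with little PHGDH that takes up serine from the medium.

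Promoter sequences from RefSeq (GRCh38.p14, 250 bases before to 50 bases after a start site) were found for 6 of the 10 enzymes, PHGDH, PSAT1, ASNS, MTHFD2, MTHFD1L and ALDH18A1. The CARE core TGATGNAA, searched on both strands, occurred in some but not all windows of ASNS and MTHFD1L, and 3.62% of all 35116 promoter windows held it. Such shares count windows, whereas an enzyme with several start sites had several windows. The ASNS window (chr7:97872359-97872658, minus strand) and the MTHFD1L window (chr6:150866236-150866535, plus strand) are shown because they hold the core. ASNS was called higher in the comparison, on counts that leave out nearly all of its main transcript, while MTHFD1L was not called. Capitals mark the CARE core, which starts 68 bases before the ASNS start site and 129 bases before the MTHFD1L start site of these windows. Windows of other MTHFD1L start sites placed the same core 90 bases before and 24 bases after the start. Another ASNS window (chr7:97872116-97872415) and another MTHFD1L window (chr6:151006758-151007057) held no core.
ASNS: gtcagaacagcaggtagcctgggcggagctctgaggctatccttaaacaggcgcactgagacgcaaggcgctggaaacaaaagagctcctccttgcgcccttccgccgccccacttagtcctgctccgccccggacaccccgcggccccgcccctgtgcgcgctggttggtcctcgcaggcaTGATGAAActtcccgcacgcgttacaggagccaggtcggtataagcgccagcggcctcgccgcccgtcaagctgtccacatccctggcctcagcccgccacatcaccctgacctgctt
MTHFD1L: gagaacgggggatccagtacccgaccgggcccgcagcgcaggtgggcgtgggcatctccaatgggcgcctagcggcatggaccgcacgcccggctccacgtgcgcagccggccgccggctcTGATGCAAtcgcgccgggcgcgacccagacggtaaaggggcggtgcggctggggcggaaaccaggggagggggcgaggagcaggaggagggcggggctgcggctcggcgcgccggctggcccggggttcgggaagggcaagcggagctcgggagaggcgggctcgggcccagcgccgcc
The metal response element cores TGCACNC and TGCGCNC, of the kind bound by MTF-1, matched in windows of ASNS, PSAT1 and MTHFD1L and in 29.6% of all windows. The AP-1 site TGANTCA, the motif of FOS and JUN, matched in none of the 6 enzymes' windows and in 7.71% of all windows. A match is only a run of letters and was not tested as a binding site.

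Total counts ranged from 51934729 to 61916007 per library. A normalized count is a read count divided by the size factor of its library, and both mates of a read pair contribute. Replicates of the 2 groups differed in spread. Over the 12924 genes whose normalized count averaged 100 or more, here called expressed genes, log2 ratios between libraries had a robust SD of 0.56 in the controls and 0.16 in the cadmium group. MT2A, a metallothionein that binds cadmium, rose by 2.06 on the log2 scale (DESeq2 adjusted p = 9.41e-06), whereas MTF1 had a log2 fold change of -0.28 (DESeq2 adjusted p = 1.00). VIM lay between 571 and 714 TPM, a share of reads corrected for exon length, and CD44 between 163 and 203, while the luminal marker ESR1 stayed at or below 0.0999 TPM, and the leukocyte marker CD3E was at 0 in every library. The other markers were not all near 0. CDH1 reached 7.91 TPM and PTPRC 1.22 TPM, both in control 3, and GATA3 ranged from 10.9 to 21.1 TPM. The monocyte marker CD14 was at 9.73 and 6.31 TPM in the controls and 3.28 and 5.53 TPM in the cadmium libraries, both below both controls (DESeq2 adjusted p = 0.809). The part of these markers in the results was not tested.

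Of the 10 enzymes 1, ASNS, was called higher in cadmium-resistant cells and 0 were called lower. The ASNS count leaves out nearly all of its main transcript, as described below. DESeq2 called 1.14% of the 19816 genes tested at an adjusted p-value below 0.1, with 0.601% higher and 0.535% lower. At an adjusted p-value below 0.05 it called 0 of the enzymes, against 0.763% of genes, with 0.396% higher. At an unadjusted p-value below 0.05 ASNS was again the 1 enzyme of 10, against 6.92% of genes in DESeq2, 7.39% in edgeR and 7.4% in limma-voom. Both cadmium libraries lay above both controls for ASNS, SHMT2 and MTHFD2 and below both for PSPH, ALDH1L2 and PYCR1. Those 3 and 3 of 10 stand beside 20.3% and 19.9% of all tested genes. The median log2 fold change of the 10 enzymes was -0.05, and that of all genes tested was -0.02. The median of the enzymes had no steady sign, and lay between -0.10 (without cadmium 1) and 0.18 (without cadmium 2) when 1 library was left out.

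**Figure D1:**
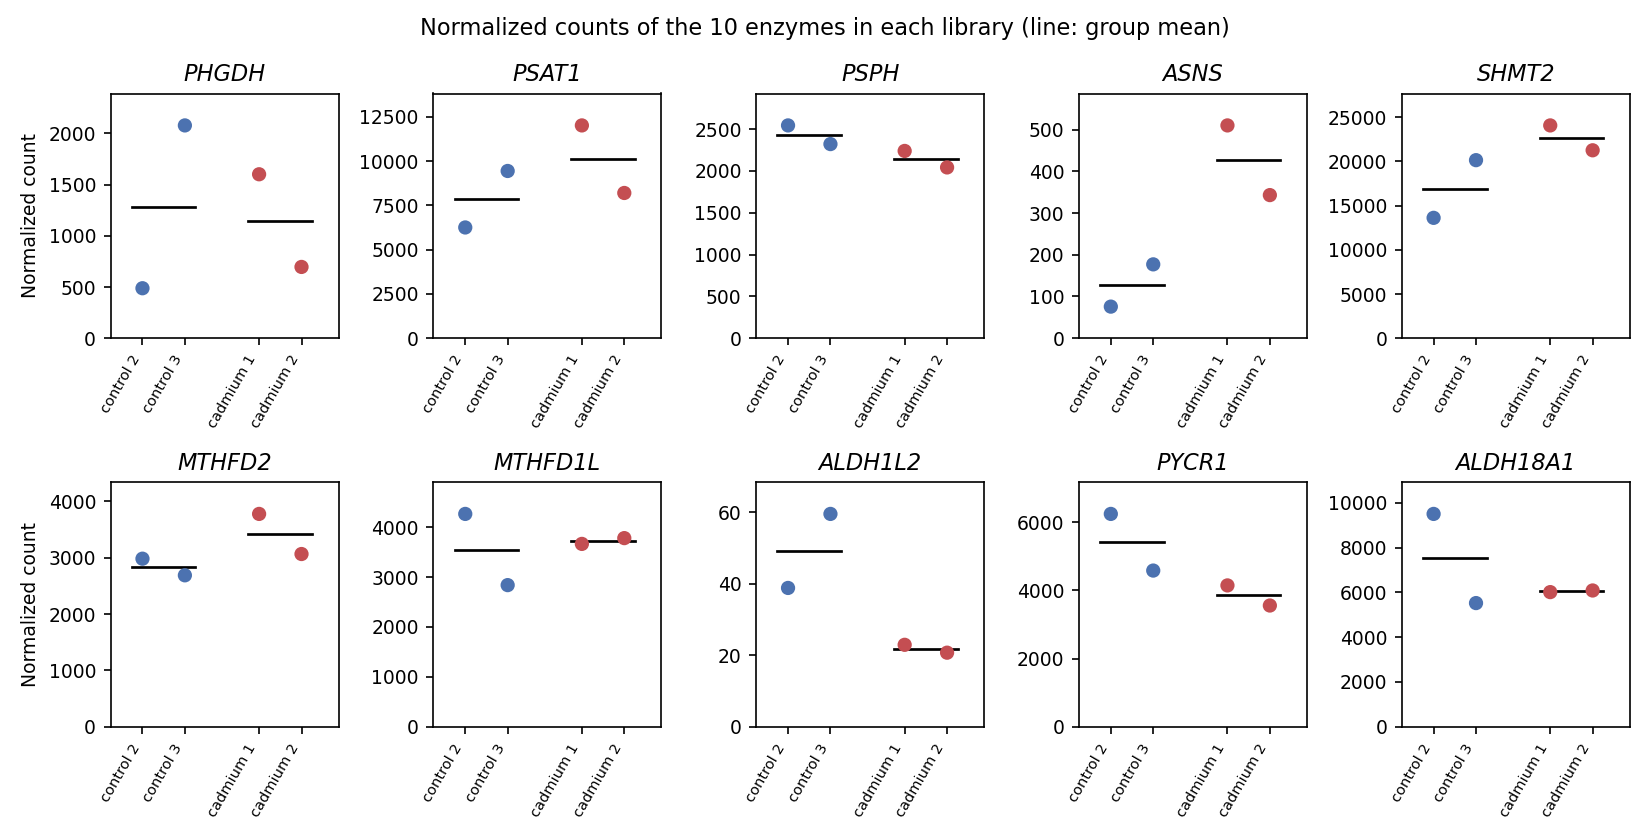
Normalized counts of the 10 enzymes (y axis, starting at 0) in the 2 control (blue) and 2 cadmium (red) libraries, with a line at each group mean. ASNS goes from at most 177 in the controls to at least 343 in the cadmium libraries, while PHGDH spreads within both groups. The ASNS counts leave out nearly all of its main transcript.

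ASNS (ENSG00000070669, chromosome 7, 97851677 to 97872542, hg38, minus strand), the enzyme that amidates aspartate to asparagine, had normalized counts of 75.7 (control 2), 177 (control 3), 510 (cadmium 1) and 343 (cadmium 2). Both cadmium values were above both controls, and the smallest of the 4 pairwise log2 differences was 0.95. The group means were 126 ± 71.3 and 426 ± 118 (SD, n = 2 each), and the log2 fold change of 1.76 (SE 0.50) had a DESeq2 adjusted p-value of 0.0539. The call was lost at an adjusted p-value below 0.05, with edgeR (adjusted p = 0.674), with limma-voom (adjusted p = 0.669), and in DESeq2 without cadmium 1 (log2 fold change 1.44, adjusted p = 1.00) or without cadmium 2 (2.01, adjusted p = 1.00). It was kept without control 2 (1.27) and without control 3 (2.48).

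What the ASNS count covers is narrow. Its exons overlap those of ENSG00000284707, a readthrough noncoding gene on the same strand (97851688 to 97972985), and reads that touch exons of more than 1 gene were not counted. Of the 2385 bases in the canonical ASNS transcript of GENCODE, 2374 (99.5%) were shared in this way, so only 11 bases of it could give a count of their own. All exons of ASNS held 2481 unshared bases, nearly all outside the canonical transcript, and the longest stretch had 1163 bases. The ASNS values above are therefore counts of reads on these remaining exon parts, and the level of the main messenger RNA was not measured by them. ENSG00000284707 itself had normalized counts of 103 and 203 in the controls and 181 and 149 in the cadmium libraries. Its log2 fold change was 0.11 (SE 0.49, DESeq2 adjusted p = 1.00), and the ratio of ASNS to ENSG00000284707 reads was 0.734 and 0.869 in the controls against 2.81 and 2.30 in the cadmium libraries.

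The serine synthesis enzymes showed no common change. PHGDH (ENSG00000092621, chromosome 1), which oxidizes phosphoglycerate in the first step, had normalized counts of 488 (control 2) and 2078 (control 3) against 1601 (cadmium 1) and 696 (cadmium 2). The lowest and the highest value were both controls, and the cadmium values lay between them. The log2 fold change was -0.16 with a 95% interval of -1.40 to 1.08 (DESeq2 adjusted p = 1.00), so a change of 2-fold in either direction is within the error. Its sign rested on single libraries, with 1.22 without control 3, 0.32 without cadmium 2 and -0.85 without control 2.

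PSAT1 (ENSG00000135069, chromosome 9), the aminotransferase of the second step, had normalized counts of 6252 and 9441 in the controls and 12013 and 8199 in the cadmium libraries. Cadmium 2 lay within the control range. PSAT1 had a log2 fold change of 0.37 (SE 0.35, DESeq2 adjusted p = 1.00). PSPH (ENSG00000146733, chromosome 7), the phosphatase that releases serine, was the steadiest of the 3, with 2543 and 2320 in the controls and 2238 and 2041 in the cadmium libraries. The cadmium values were below the controls by a small margin, with a log2 fold change of -0.18 (95% interval -0.69 to 0.32, DESeq2 adjusted p = 1.00). Its 40 expressed neighbours had a median log2 ratio of -0.14. Its 1 pseudogene in the table, PSPHP1, received between 10.6% and 12.5% as many reads as PSPH, so the division of reads between them is uncertain.

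Among the mitochondrial folate enzymes SHMT2 and MTHFD2 were slightly higher and ALDH1L2 was lower, and none of the 4 passed the test. SHMT2 (ENSG00000182199, chromosome 12), which moves a carbon from serine to folate, had normalized counts of 13620 and 20147 in the controls and 24078 and 21264 in the cadmium libraries. Both cadmium libraries exceeded both controls, but cadmium 2 exceeded control 3 by little. The log2 fold change was 0.43 (SE 0.30, DESeq2 adjusted p = 0.943). It was 0.72 without control 3, in a fit left with a single control and so without a measure of the spread between controls.

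MTHFD2 (ENSG00000065911, chromosome 2), the dehydrogenase and cyclohydrolase of the pathway, had 2983 and 2688 in the controls and 3778 and 3066 in the cadmium libraries. The log2 fold change was 0.27 with a 95% interval of -0.26 to 0.80 (DESeq2 adjusted p = 1.00), against a median of -0.26 for its 40 expressed neighbours. It was 0.53 relative to those neighbours. Exons of other genes covered 36.8% of its canonical transcript, where its reads could not be counted.

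MTHFD1L (ENSG00000120254, chromosome 6), which releases the carbon as formate, had 4265 and 2838 in the controls and 3664 and 3780 in the cadmium libraries, both between the controls. Its log2 fold change was 0.07 with a 95% interval of -0.54 to 0.67 (DESeq2 adjusted p = 1.00), so that of the genes with the CARE core shown above ASNS was called and MTHFD1L was not. The difference between these fold changes was not tested. MTHFD1L turned to 0.39 without control 2 and to -0.21 without control 3, in fits left with a single control.

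ALDH1L2 (ENSG00000136010, chromosome 12), which oxidizes the folate-bound carbon to CO2, was nearly silent, with only 41 and 56 reads in the controls and 23 and 21 in the cadmium libraries. The log2 fold change was -1.17 (SE 0.71, DESeq2 adjusted p = 0.857), and the 95% interval of -2.56 to 0.22 shows how little so few reads determine. The gene overlaps WASHC4 and NOPCHAP1 on the other strand. Reads touching exons of more than 1 gene were not counted, and 2.91% of the ALDH1L2 exon bases were shared with other genes. Strand was ignored, so reads counted on the remaining bases could come from either strand.

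The proline enzymes had lower means in cadmium-resistant cells, and neither was called. PYCR1 (ENSG00000183010, chromosome 17), which carries out the last reduction to proline, had normalized counts of 6247 and 4584 in the controls and 4148 and 3558 in the cadmium libraries. Both cadmium values were below both controls, and the log2 fold change was -0.49 (SE 0.29, DESeq2 adjusted p = 0.842). ALDH18A1 (ENSG00000059573, chromosome 10), which reduces glutamate in the first step, had 9511 and 5526 in the controls and 6016 and 6089 in the cadmium libraries. Its cadmium libraries almost coincided and lay between the controls, with a log2 fold change of -0.31 (DESeq2 adjusted p = 1.00) that became 0.13 without control 2. Without control 3 the log2 fold change was -0.71 for PYCR1 and -0.66 for ALDH18A1, again with a single control left.

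**Figure D2:**
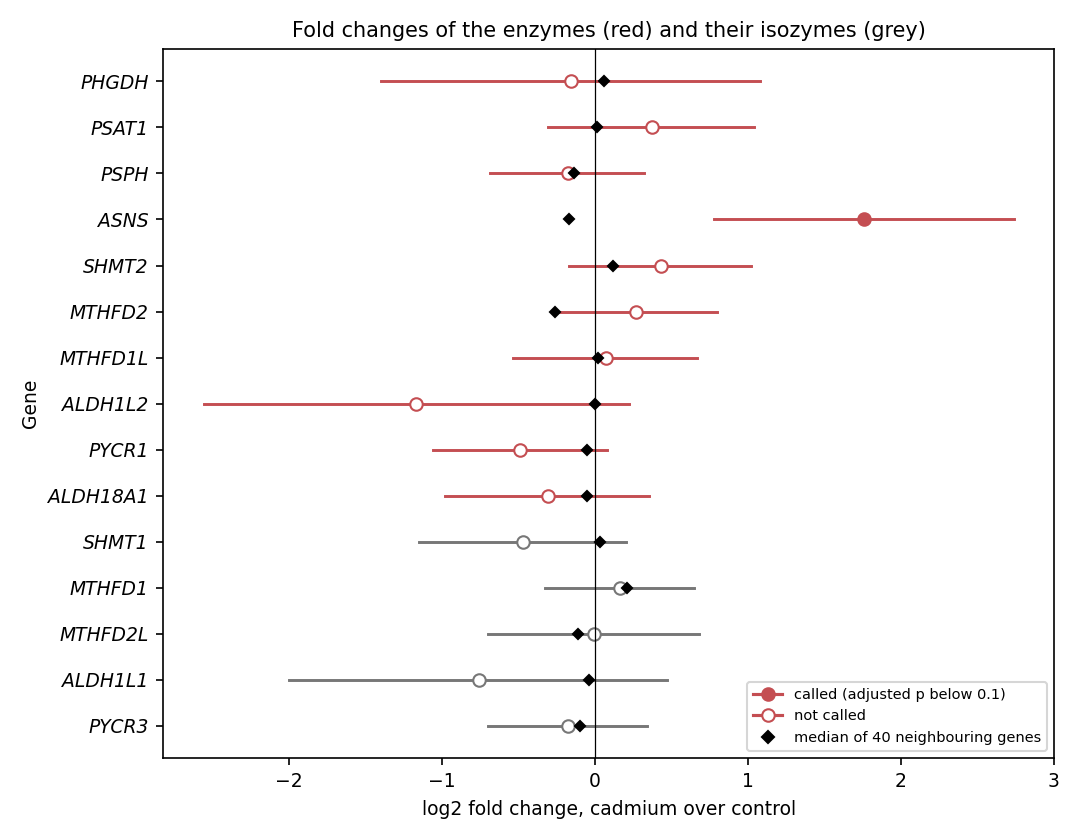
Log2 fold change of cadmium over control (x axis) for the 10 enzymes (red) and 5 isozymes (grey) with 95% intervals, filled where called, and the median of 40 expressed neighbouring genes as a diamond. ASNS at 1.76 is the only filled point, and every other interval includes 0.

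Isozymes of the enzymes gave no call either, where 1.14% of all genes tested were called. SHMT1, the cytosolic counterpart of SHMT2, had a log2 fold change of -0.47 (SE 0.34, DESeq2 adjusted p = 0.946), with 4282 and 2552 normalized counts in the controls and 2270 and 2659 in the cadmium libraries. MTHFD1, the cytosolic trifunctional enzyme, had a log2 fold change of 0.16, MTHFD2L one of -0.01, ALDH1L1 one of -0.76 and PYCR3 one of -0.18. Reads per kilobase of exon of SHMT2 were 4.86 and 12.1 times those of SHMT1 in controls 2 and 3, and 16.2 and 12.2 times in cadmium 1 and 2. Control 2 alone stood apart in that ratio, and control 3 was almost equal to cadmium 2.

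Levels of the enzymes were compared per length, in TPM from the exon length of the table and averaged over the 4 libraries. SHMT2 at 330 TPM (range 215 to 412) and PSAT1 at 312 TPM (205 to 428) were the most abundant, with overlapping ranges, although with canonical transcript lengths SHMT2 (255 to 493 TPM) was above PSAT1 (114 to 240 TPM) in range. ALDH18A1 at 137 TPM and PYCR1 at 122 TPM followed, also with overlapping ranges, and then PSPH at 63.0 TPM and MTHFD1L at 56.5 TPM. With canonical transcript lengths the order of ALDH18A1 (85.5 TPM) and PYCR1 (86.5 TPM) was reversed. Of the PYCR1 exon bases 29.7% were shared with other genes, where its reads could not be counted. MTHFD2, counted without its shared bases, was at 20.9 TPM and PHGDH at 10.2 TPM, with a range of 3.85 to 17.7 TPM that did not reach the lowest MTHFD2 value of 18.4 TPM. ALDH1L2 was last at 0.285 TPM, and ASNS at 4.35 TPM cannot be placed because its main transcript was not counted. PHGDH depends most on the length used, since its exons sum to 9187 bases and its canonical transcript to 1866 bases, and with canonical lengths it stood at 28.2 TPM beside 30.3 TPM for MTHFD2. The second step of serine synthesis exceeded the first in every library on both scales, with PSAT1 between 18.9 and 53.3 times PHGDH by exon length and between 3.84 and 10.8 times by canonical length.

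Differences between libraries of 1 group were larger for some of these enzymes than the difference between the groups. Cadmium 1 exceeded cadmium 2 by 2.30-fold for PHGDH, and only 0.124% of the 12924 expressed genes differed as much between these libraries. ASNS differed by 1.49-fold and PSAT1 by 1.47-fold, a size reached by 2.50% and 2.82% of genes. Of the 9 enzymes among the expressed genes these 3 exceeded a log2 ratio of 0.5 between the cadmium libraries, against 3.78% of genes. The controls differed for these genes too, with control 3 above control 2 by 4.26-fold for PHGDH, 2.33-fold for ASNS and 1.51-fold for PSAT1. Differences of that size were commoner between the controls, reached by 3.47% of expressed genes for PHGDH, 9.91% for ASNS and 32.4% for PSAT1. SHMT2 followed with 1.48-fold between the controls and 1.13-fold between the cadmium libraries, sizes reached by 34.4% and 31.0% of genes. For PSPH, MTHFD2, MTHFD1L, PYCR1 and ALDH18A1 control 3 was the lower control. The cadmium libraries differed by 0.969-fold for MTHFD1L and 0.988-fold for ALDH18A1. Higher in both control 3 and cadmium 1 were 4 of the 9 enzymes, against 22.4% of expressed genes. No pairing between libraries of the 2 groups is described, so the order within 1 group cannot be matched to that in the other.

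**Figure D3:**
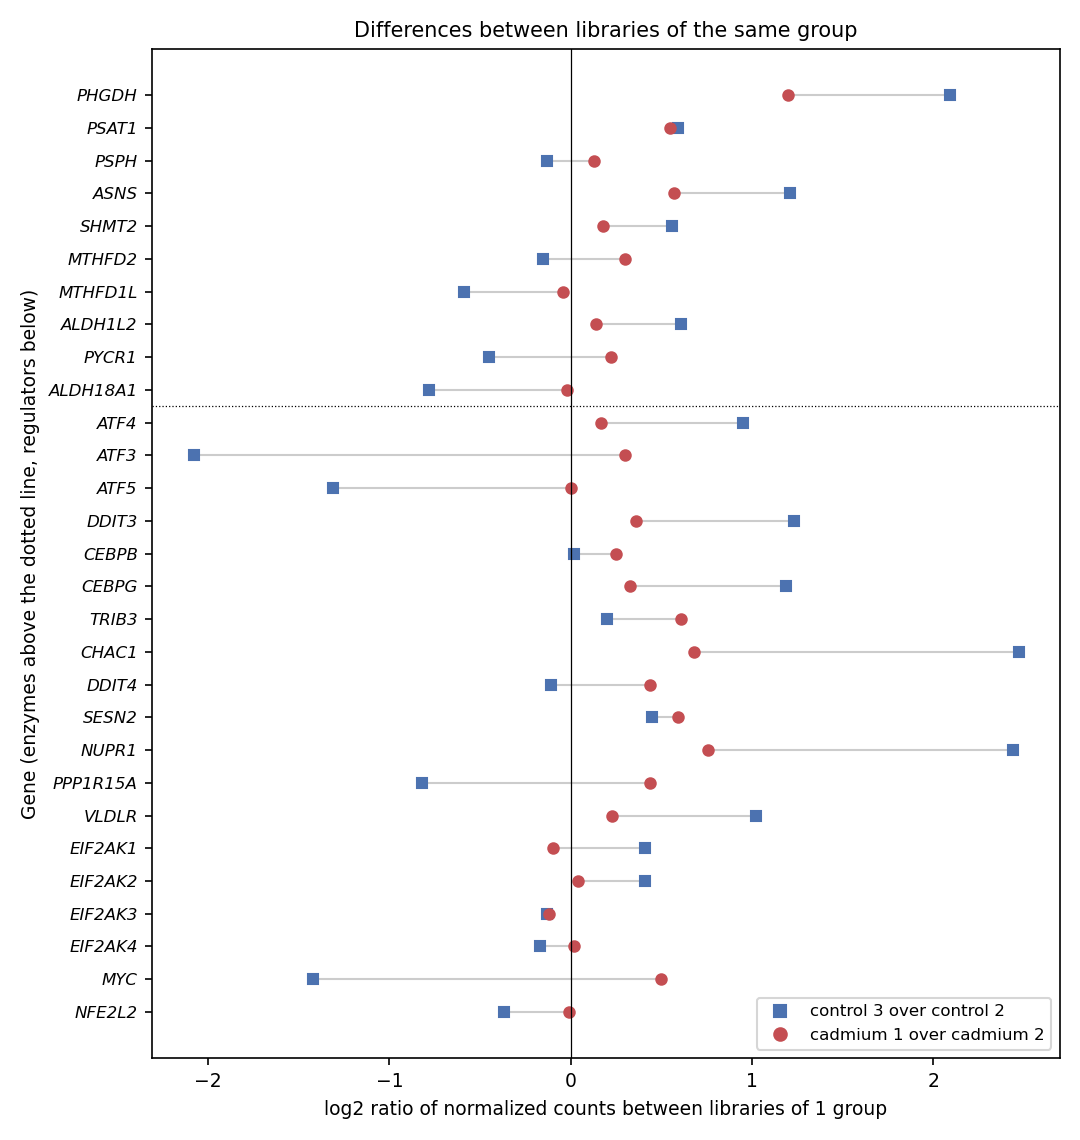
Log2 ratio of normalized counts between libraries of 1 group (x axis), control 3 over control 2 (blue squares) and cadmium 1 over cadmium 2 (red circles), for the 10 enzymes above the dotted line and 19 amino acid response regulators below it. PHGDH has the largest cadmium ratio of the enzymes at 1.20, and most red points of the regulators lie to the right of 0.

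Most regulators of the amino acid response were higher in cadmium 1, whereas between the controls they went both ways. Of the 19 genes in that list 16 were higher in cadmium 1 than in cadmium 2, against 5730 of 12924 expressed genes. Their median log2 ratio was 0.30 against -0.02 over all expressed genes. For 5 of them the ratio exceeded 0.5 in size, against 3.78% of expressed genes. Between the controls 11 of the 19 were higher in control 3, against 5883 of 12924 expressed genes. Higher in both control 3 and cadmium 1 were 10 of the 19, against 22.4% of expressed genes. No pairing of these libraries is described, so this count joins them arbitrarily and was not tested. ATF4 itself had 13593 and 26252 normalized counts in the controls and 26363 and 23389 in the cadmium libraries, so that control 2 was low and the other libraries were close to each other. Its log2 fold change was 0.32 (SE 0.37, DESeq2 adjusted p = 1.00). DDIT3, a stress factor induced downstream of ATF4, had 404 and 951 in the controls and 1480 and 1155 in the cadmium libraries (log2 fold change 0.96, DESeq2 adjusted p = 0.600), with 35.9% of its canonical transcript shared with other genes. TRIB3, a pseudokinase induced by ATF4, had 2915 and 3360 in the controls and 6735 and 4427 in the cadmium libraries (0.83, DESeq2 adjusted p = 0.331). None of the 19 regulators was called, against 1.14% of all genes tested. A positive log2 fold change was found for 14, against 9398 of 19816 genes tested. The median was 0.29, against -0.02 over all genes tested. Both cadmium libraries lay above both controls for 7 regulators and below both for 2, against 20.3% and 19.9% of genes tested.

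Of the 12 amino acid transporters 1 was called, against 1.14% of all genes tested. SLC7A11, the cystine importer, rose from 1860 and 2996 normalized counts to 8075 and 9674, with no overlap of the groups and a log2 fold change of 1.87 (SE 0.33, DESeq2 adjusted p = 1.77e-05). Cadmium 2 was its higher cadmium library, the opposite order to PHGDH, PSAT1 and ASNS. For 9 of the 12 transporters the log2 fold change was positive, against 9398 of 19816 genes tested, and the median was 0.36. Both cadmium libraries lay above both controls for 7 transporters and below both for 1, against 20.3% and 19.9% of genes tested. The other serine, glycine and folate genes had a median of -0.27. Of the 23 tested 0 were called, beside 1.14% of all genes, and 18 were lower, beside 10418 of 19816 genes. Leaving out 1 library moved that median between -0.40 (without control 3) and -0.07 (without control 2). The other asparagine, glutamine and proline genes had a median of -0.15 over 10 tested genes, again with 0 called, and it turned to 0.14 without control 2 and lay at -0.44 without control 3. An unadjusted DESeq2 p-value below 0.05 was found for 4 of the 12 transporters (33.3%), 5 of the 19 regulators (26.3%) and 1 gene of the last 2 lists together, against 6.92% of all genes. All 4 transporters and 4 of these 5 regulators were higher, while 1 regulator and the gene of the last 2 lists were lower. Of all genes tested, 603 were higher and 769 lower at that threshold. The lists were chosen with earlier results of these data known, so these shares are no independent evidence. After adjustment edgeR and limma-voom called 0 genes of any list and 0 of all genes tested.

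**Figure D4:**
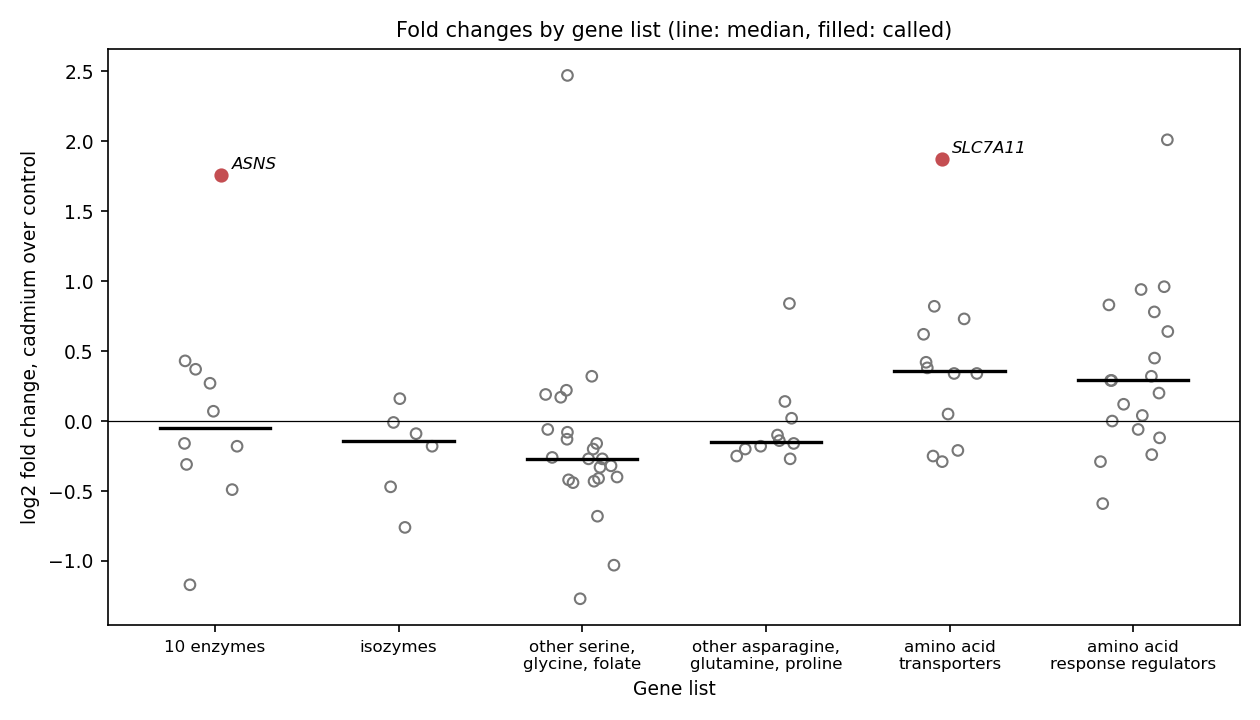
Log2 fold change of cadmium over control (y axis) for each tested gene of the 10 enzymes and 5 other lists, with a line at each median and called genes filled and named. ASNS and SLC7A11 are the only filled points, and the medians run from -0.27 for other serine, glycine and folate genes to 0.36 for the transporters.

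The genes around ASNS were lower on the log2 ratio scale. Its 40 expressed neighbours (95583499 to 100158723) had a median log2 ratio of -0.17, and ASNS was 1.93 above that level. Profiles most like that of ASNS over the 4 libraries, by root mean square difference of centred log2 normalized counts among 12924 genes, were those of SOX4 (0.13), SLC26A7 (0.16), LINC03040 (0.18) and LURAP1L (0.19). The nearest of the other enzymes were SHMT2 (0.75) and PSAT1 (0.77), of which SHMT2 ranked 819th among all genes.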

How the data were processed

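Per the file header and the study's methods, the authors removed adaptors with bbduk, used hisat2 for alignment on hg38 and ran featureCounts 2.0.1 against Ensembl 105. What they deposited is a table of raw counts, with no scaling. Only annotation and output options were set, so strand was ignored, each mate was counted and reads touching exons of several genes were dropped. Even values made up 70.6% to 71.5% of the counts from 1 to 20. The labels name the molecule genomic DNA while the protocol describes total RNA. The control columns' numbers do not match those of the labels, so they were used as a group. Symbols matched 61369 of 61541 genes.

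Differential expression was tested over all genes with DESeq2 1.42.0 (R 4.3.3; groups as the only term, Wald test, two-sided, Benjamini-Hochberg adjusted p below 0.1, filter at a mean normalized count of 7.69), following the study's choice of tool. Intervals are 1.96 standard errors. As alternatives, the quasi-likelihood test of edgeR 4.0.16 and voom from limma 3.58.1 were run, with other scalings, filters and thresholds, halved counts and leaving out each library. Exon overlap used the table's exons and GENCODE 44 canonical transcripts (both hg38). Neighbours were the 40 nearest expressed genes, as log2 ratios of group means plus 1, centred on the median of expressed genes. The scripts were tested on simulated counts. The enzymes and lists were chosen with earlier results of these data known. Named genes were the 10 enzymes, their isozymes, called genes of the lists, ATF4, DDIT3, TRIB3, SLC7A11, MT2A, MTF1 and the 4 profiles nearest to ASNS. PSPHP1, WASHC4, NOPCHAP1, ENSG00000284707, SLC25A32 and the markers are named beyond that rule, and 1 isozyme and 1 marker are not reported here. Depth limits low genes: 3 counts, the limit that a count of 0 allows, are 0.0485 to 0.0578 CPM, or 0.0969 to 0.116 CPM (6 counts) where both mates of a pair are counted, for counting error only.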

Additional observations from a re-analysis of the deposited data

How the results depend on the processing

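The number of calls depended on the test and on single libraries. DESeq2 called 119 genes higher and 106 lower, 1 enzyme higher and 0 lower, and 1 higher and 0 lower of the other pathway genes. With edgeR and with limma-voom these counts were 0 for all genes, the enzymes and the other pathway genes, while 1422 and 1423 of 19241 genes passed 0.05 unadjusted. An adjusted p-value below 0.05 left 0 enzymes called. Leaving out 1 library gave 9 to 2678 genes higher and 5 to 3511 lower, 0 to 2 enzymes higher and 0 to 2 lower, and 0 to 17 other pathway genes higher and 0 to 20 lower. In each such fit the lone library was assumed to vary like the other group, and counts were high without a control and low without a cadmium library. Upper-quartile scaling moved the split to 152 higher and 88 lower (63.3% higher against 52.9%). The ASNS call held under both other scalings, without independent filtering, with a minimum of 10 counts in 2 libraries and with halved counts, at DESeq2 adjusted p-values from 0.0426 to 0.0922. The PHGDH log2 fold change turned to 0.10 with limma-voom, 1.22 without control 3 and 0.32 without cadmium 2, and ranged from -0.89 to 1.22 when 1 library was left out. It turned to -0.21 for MTHFD1L without control 3 (range -0.21 to 0.39) and to 0.13 for ALDH18A1 without control 2 (range -0.66 to 0.13). The cause was not tested. No paired analysis was possible because numbers on control columns of the table differ from those in the labels.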

Other observations

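Loss of reads to overlapping genes reached beyond ASNS. More than 20% of the canonical transcript was covered by exons of other genes for 2 of the 10 enzymes, 16 of the 74 other pathway genes and 14.4% of all 61369 genes with a canonical transcript. Among the other pathway genes SLC25A32, the mitochondrial folate carrier, was named here after its values were seen. Its normalized counts were 4.73 and 4.25 in the controls and 1.99 and 13.8 in the cadmium libraries. Of its canonical transcript 99.3% was shared, and of its exon bases 80.8%, so these counts do not measure the level of its main transcript. Whether recounting with another rule for shared bases would change the ASNS call was not tested, because the reads are not analysed here.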
